A study of Mus musculus with 6 samples.

Results

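The 8 genes described here encode the parts of 2 suppressive cytokine pathways: Il10 (interleukin 10), its receptor chains Il10ra and Il10rb, Tgfb1 (transforming growth factor beta 1), its receptor chains Tgfbr1 and Tgfbr2, Lrrc32, which encodes GARP, and Socs3. They were taken by name from the 20882 gene columns of the deposited single-cell tables, and all 8 were found. Live CD45+ cells, the leukocytes, had been sorted from lungs of humanized PD-1 mice aged 6 to 8 weeks and profiled by single-cell RNA sequencing. One group had been given a PD-1 agonist, PD-1 being an inhibitory receptor that T cells show after activation, and the other an isotype control antibody, and the study's title places the work in neutrophilic asthma. Both groups share the humanized PD-1. Cells of 3 samples per group had been labelled by cell hashing and mixed, about 50000 cells for each group per the labels, against 13728 agonist and 12448 isotype barcodes in the tables. How asthma was induced is not given in the sources used here, and the tables themselves call the isotype group untreated.

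Interleukin 10 is released by regulatory T cells, some effector T cells, macrophages and B cells. It binds IL10RA, which gives specificity, and IL10RB, which it shares with interleukin 22 and the lambda interferons, and the receptor acts through JAK1, TYK2 and STAT3. TGF-beta is made in a latent form that GARP can hold on the surface of regulatory T cells. Once active, it binds TGFBR2, which recruits and phosphorylates TGFBR1, and SMAD proteins carry the signal. SOCS3 is a feedback inhibitor that STAT3 induces and that dampens signals of the interleukin 6 and G-CSF receptors.

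The 3 tables of each treatment held 6393 to 6749 cell records and 2.16e+07 to 2.97e+07 counts. They shared cells: 2373 to 2736 barcodes were common to any 2 tables of a treatment, against 3 to 13 between treatments. Each treatment was thus 1 pool of cells and 1 sample. The treatments could therefore not be tested against each other, none of the differences below has replicates behind it, and the effect of treatment and that of library cannot be told apart. Each barcode was used once, and 11168 agonist and 10302 isotype cells were kept, with a median of 2212 and 2536.5 counts per cell. Ptprc, which encodes CD45, had a count in 90.6% and 91.0% of them. Levels are CPM, the summed counts of a class scaled to a common library total, and ratios are log2 of agonist over isotype. Brackets give exact 95% intervals that cover counting error only.

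Cells were placed in 19 leukocyte classes of at least 50 cells in each library, named "-like" from marker genes apart from 2 clusters called by their leading genes. One was led by Slc7a2, Gpnmb and Arg1. The other, the Dapl1-led T cell cluster, had 8 T cell markers detected but 0 of them among its top 10 genes, which were led by Dapl1, Cd8b1 and Lef1 and also held Cd8a. None of the 8 genes took part in the clustering or the naming. Over all cells, markers of cells outside the sort summed to 5.92 and 6.24 CPM for 6 fibroblast genes and 99.9 and 99.2 CPM for 7 endothelial genes. They were higher in some classes, large and small, and lower in others. In B cell-like cells 7 endothelial genes summed to 195 and 194 CPM. In interstitial macrophage-like cells 6 fibroblast genes summed to 30.7 and 28.7 CPM. In the small classes that follow, part of each list carried the sum. In plasmacytoid dendritic cell-like cells 7 endothelial genes summed to 343 and 346 CPM, with counts for 4 of them in each library. In basophil-like cells 7 epithelial genes summed to 683 and 596 CPM, from 1 gene in the agonist and 2 in the isotype library. In type 2 innate lymphoid cell-like cells 4 erythroid genes summed to 163 and 46.1 CPM (36 and 12 counts), from 1 and 2 genes. Their part in the levels of those classes was not tested.

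In the GENCODE annotation of mouse assembly GRCm38 (mm10), all 8 are protein-coding genes. Il10 (ENSMUSG00000016529.5) lies on the plus strand of chromosome 1 at 131019845 to 131024974, and Tgfb1 (ENSMUSG00000002603.15) on the plus strand of chromosome 7 at 25687002 to 25705077. Lrrc32 (ENSMUSG00000090958.2) lies on the plus strand of chromosome 7 at 98489283 to 98502181. Il10rb (ENSMUSG00000022969.13) lies on the plus strand of chromosome 16 at 91406164 to 91425834, overlaps Gm21970 on the same strand and shares 20.6% of the 31-mers of its longest transcript with other genes, so its counts are uncertain. Il10ra (ENSMUSG00000032089.16) lies on the minus strand of chromosome 9 at 45253837 to 45269149 and is overlapped by Gm20612 on the opposite strand. Tgfbr2 (ENSMUSG00000032440.13) is also on the minus strand of chromosome 9, at 116084293 to 116175360. Tgfbr1 (ENSMUSG00000007613.15) lies on the plus strand of chromosome 4 at 47353222 to 47414931, and Socs3 (ENSMUSG00000053113.3) on the minus strand of chromosome 11 at 117966079 to 117970047. The other 7 genes share at most 3.54% of their 31-mers.

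Socs3 is known to be induced by STAT3, so the 250 bases before its RefSeq start site are shown (chr11:117969367-117969616, minus strand, GRCm38.p6, from RefSeq). Capitals mark the match to the STAT motif TTCNNNGAA, searched on both strands. The motif is its own reverse complement.
Socs3: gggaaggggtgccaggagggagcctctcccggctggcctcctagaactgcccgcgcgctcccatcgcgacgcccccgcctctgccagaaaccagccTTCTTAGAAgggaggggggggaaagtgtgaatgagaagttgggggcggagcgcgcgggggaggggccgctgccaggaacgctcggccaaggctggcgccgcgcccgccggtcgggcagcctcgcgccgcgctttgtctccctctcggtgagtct
The match, TTCTTAGAA, begins 154 bases before the RefSeq start site. In the GENCODE annotation Socs3 spans 117966079 to 117970047, so the stretch shown lies within the gene there. Of 32851 such windows of mouse genes, 7.02% held the motif. The corresponding windows of Tgfb1, Tgfbr2 and both starts of Tgfbr1 held none. No such window was at hand for Il10, Il10ra, Il10rb and Lrrc32, which were not searched. A match is a description of these letters and not a measured binding site.

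Il10 transcripts were rare, and the regulatory T cell-like class had the highest level, although no step in the order of classes was apart by the intervals of both libraries. Over all kept cells, Il10 had 84 counts in 53 agonist cells and 133 counts in 64 isotype cells, or 2.37 CPM (1.89 to 2.93) and 3.60 CPM (3.01 to 4.26). In regulatory T cell-like cells, the Foxp3 lineage, Il10 was at 52.2 CPM (29.9 to 84.8, 16 counts) in the agonist library and 62.6 CPM (40.9 to 91.7, 26 counts) in the isotype library. These 98 agonist and 145 isotype cells were 0.878% and 1.41% of the kept cells and held 19.05% and 19.55% of the Il10 counts. Type 2 innate lymphoid cell-like cells came next, with 0 and 19.2 CPM (isotype 6.24 to 44.8), then CD4 T cell-like cells with 4.81 CPM (2.30 to 8.84) and 11.7 CPM (7.71 to 17.0), whose intervals lay below those of the regulatory class in both libraries. The log2 ratio of -0.26 (-1.26 to 0.69) in the regulatory class leaves the libraries indistinguishable at this depth.

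Other classes had Il10 in few cells. Interstitial macrophage-like cells held 27.4% of the agonist counts and 11.3% of the isotype counts, with 4.08 CPM (23 counts in 13 cells) and 2.32 CPM (15 counts in 11 cells), a log2 ratio of 0.82 (-0.18 to 1.86). B cell-like cells had 12 counts in 7 agonist cells and 9 counts in 7 isotype cells. CD4 T cell-like cells had 10 counts in 2 agonist cells and 27 counts in 4 isotype cells, and 1 cell held 90% and 55.6% of them. Their interval lay below 0 (-1.28, -2.50 to -0.19), but it treats the molecules of a cell as independent. All of these counts lay in the cluster led by Icos and Cxcr6, and none of the 601 agonist and 497 isotype cells of the cluster led by Igfbp4 had a count.

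In 2 further classes with at least 5 isotype counts, single cells held all or most of them. In type 2 innate lymphoid cell-like cells, tissue cells that make type 2 cytokines, Il10 had 0 counts in 57 agonist cells and 5 counts in 1 of 72 isotype cells. With 0 counts, a level of up to 13.6 CPM was possible (3 counts). In conventional dendritic cell type 2-like cells, which present antigen to CD4 T cells, Il10 had 1 agonist count and 9 isotype counts. Of those 9, 1 cell held 88.9%. Small clusters that stayed unnamed held 1 agonist count and 19 isotype counts, of which 1 cell held 68.4%. Plasmacytoid dendritic cell-like cells and the Dapl1-led T cell cluster had 0 Il10 counts in both libraries.

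After each cell had been thinned to 1000 counts, 0.192% of agonist cells (0.117% to 0.296%) and 0.184% of isotype cells (0.109% to 0.291%) had an Il10 count, against 0.475% and 0.621% unthinned. Thinning left out 741 agonist and 533 isotype cells. In regulatory T cell-like cells the thinned shares were 5.26% (1.73% to 11.9%) and 3.60% (1.18% to 8.20%), and the unthinned ones 11.2% and 9.66%. The Dapl1-led T cell cluster, of similar depth, had 0 of 510 and 0 of 413 cells with a count. It had 0 Il10 counts before thinning as well, so this outcome was fixed in advance.

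Lrrc32 was the gene most restricted to 1 class. In regulatory T cell-like cells it was at 160.0 CPM (118 to 212, 49 counts) in the agonist library and 152 CPM (116.5 to 194, 63 counts) in the isotype library. Next came conventional dendritic cell type 2-like cells with 4.93 CPM (2.63 to 8.43) and 6.96 CPM (3.98 to 11.3), and this step was the one in the order of Lrrc32 where the intervals of both libraries lay apart. The regulatory class held 43.0% of the agonist and 54.3% of the isotype counts. Thinned, 12.6% of the agonist cells (6.70% to 21.0%) and 14.4% of the isotype cells (9.02% to 21.3%) of the class had a count, against 36.7% and 30.3% unthinned. B cell-like cells gave 0 of 1838 and 1 of 1627 cells after thinning. The log2 ratio in the class was 0.08 (-0.49 to 0.64).

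**Figure D1:**
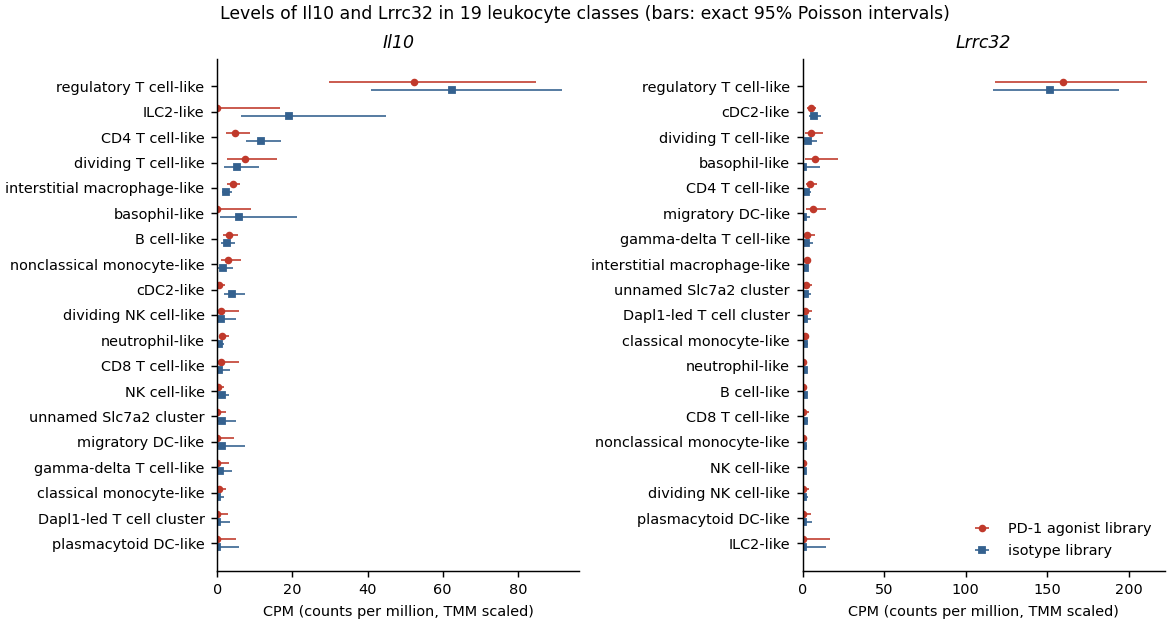
Levels of Il10 and Lrrc32 (x axis, CPM) in 19 leukocyte classes, with the PD-1 agonist library as circles above the isotype library as squares; bars are exact 95% Poisson intervals. Regulatory T cell-like cells lead both panels, at 52.2 and 62.6 CPM for Il10 and 160.0 and 152 CPM for Lrrc32.

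Il10ra, the chain that gives the interleukin 10 receptor its specificity, was high in monocyte-like, neutrophil-like and interstitial macrophage-like cells. It was low in most T cell classes. It was highest in nonclassical monocyte-like cells, the patrolling monocytes, at 227 CPM (207 to 248.8) in the agonist library and 205 CPM (186 to 225) in the isotype library. The 11 neutrophil markers, all with counts in both libraries, summed to 9141 CPM (agonist) and 1.108e+04 CPM (isotype) in this class. Their part in its levels of Il10ra, Il10rb and Socs3 was not tested. That class joined a cluster of 66.8% of its agonist and 52.0% of its isotype cells, at 242 CPM (214 to 273) and 229 CPM (195 to 267), and a deeper one of 33.2% and 48.0%, at 212.5 CPM (185 to 243) and 192 CPM (169 to 217). Neutrophil-like cells followed at 187 CPM (agonist) and 170 CPM (isotype), then type 2 innate lymphoid cell-like cells at 172 and 150 CPM from 38 and 39 counts. Interstitial macrophage-like cells were at 130 and 138 CPM and B cell-like cells at 105 and 106 CPM. Other myeloid classes lay lower, among them migratory dendritic cell-like (64.5 and 78.4 CPM), plasmacytoid dendritic cell-like (59.2 and 49.4 CPM) and alveolar macrophage-like cells (46.15 and 50.3 CPM).

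At the other end were CD4 T cell-like cells (21.1 and 27.3 CPM), CD8 T cell-like cells (25.2 and 18.4 CPM), gamma-delta T cell-like cells (12.2 and 16.03 CPM) and the Dapl1-led T cell cluster (8.02 and 10.1 CPM). Regulatory T cell-like cells, at 71.8 and 62.6 CPM from 22 and 26 counts, lay above those 4 classes. Within the CD4 class, the Icos-led cluster was at 35.9 CPM (24.7 to 50.5) and 46.6 CPM (35.4 to 60.3) and the Igfbp4-led cluster at 9.22 CPM (4.60 to 16.5) and 4.87 CPM (1.58 to 11.4). Neighbouring classes in the order were not separated by their intervals in both libraries at any step of Il10ra. Thinned, 22.2% of agonist and 16.2% of isotype nonclassical monocyte-like cells had a count (51.4% and 54.7% unthinned), against 0.588% and 1.45% of the Dapl1-led T cell cluster (1.91% and 2.62% unthinned).

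Il10rb, the shared chain, was highest in neutrophil-like cells, at 237 CPM (222 to 253) and 232 CPM (217 to 248), and this first step of the order was apart by the intervals of both libraries. The Slc7a2-led cluster followed at 157 and 181 CPM, then nonclassical monocyte-like cells at 106 and 137 CPM. Regulatory T cell-like cells were at 52.2 and 67.4 CPM. CD4 T cell-like cells, at 21.1 and 33.8 CPM, and basophil-like cells, at 26.9 and 23.6 CPM, were lowest.

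Tgfb1 was found in every class. Classical monocyte-like cells, the inflammatory monocytes that enter tissue, had 483 CPM (455 to 512) in the agonist library and 485 CPM (456 to 515) in the isotype library, and 86.1% and 87.1% of them had a count. Nonclassical monocyte-like cells (381 and 397 CPM), basophil-like cells (416 and 334 CPM) and interstitial macrophage-like cells (352 and 347 CPM) came next, and NK cell-like cells were at 312 and 323 CPM. Regulatory T cell-like cells, where Lrrc32 was highest, had 167 CPM (agonist) and 209 CPM (isotype) of Tgfb1 and so lay in the lower part of the order. Migratory dendritic cell-like cells (76.7 and 64.0 CPM) and the Dapl1-led T cell cluster (68.2 and 77.9 CPM) were lowest.

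The receptor chains of TGF-beta had different orders. Tgfbr1, the signalling chain, was highest in plasmacytoid dendritic cell-like cells, the interferon producers, at 171 CPM (142 to 203) and 183 CPM (151 to 219.9). Neutrophil-like cells were at 131 and 152 CPM, nonclassical monocyte-like cells at 109 and 120 CPM, and CD4 T cell-like cells at 20.7 and 19.5 CPM. Tgfbr2, the ligand-binding chain, was highest in CD4 T cell-like cells at 208 CPM (188.5 to 228) and 195 CPM (177 to 214), followed by the Dapl1-led T cell cluster (163 and 148 CPM) and B cell-like cells (154 and 153 CPM). It was at 70.2 and 68.6 CPM in neutrophil-like cells and 9.74 and 10.5 CPM in migratory dendritic cell-like cells, from 8 counts in each library. Across the 19 classes, the logged levels of the 2 chains had a Pearson r of -0.0991, as a description of classes that share libraries.

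Socs3, the feedback inhibitor, was highest in neutrophil-like cells at 236 CPM (221 to 252) in the agonist library and 278 CPM (261 to 295) in the isotype library. Classical monocyte-like cells followed at 202 and 238 CPM and nonclassical monocyte-like cells at 181 and 206 CPM. Migratory dendritic cell-like cells (31.7 and 34.0 CPM) and B cell-like cells (41.6 and 41.2 CPM) were among the lowest. Alveolar macrophage-like and immature neutrophil-like cells, with 33 to 37 cells in each library, were kept in the orders of levels and given no ratio between libraries.

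**Figure D2:**
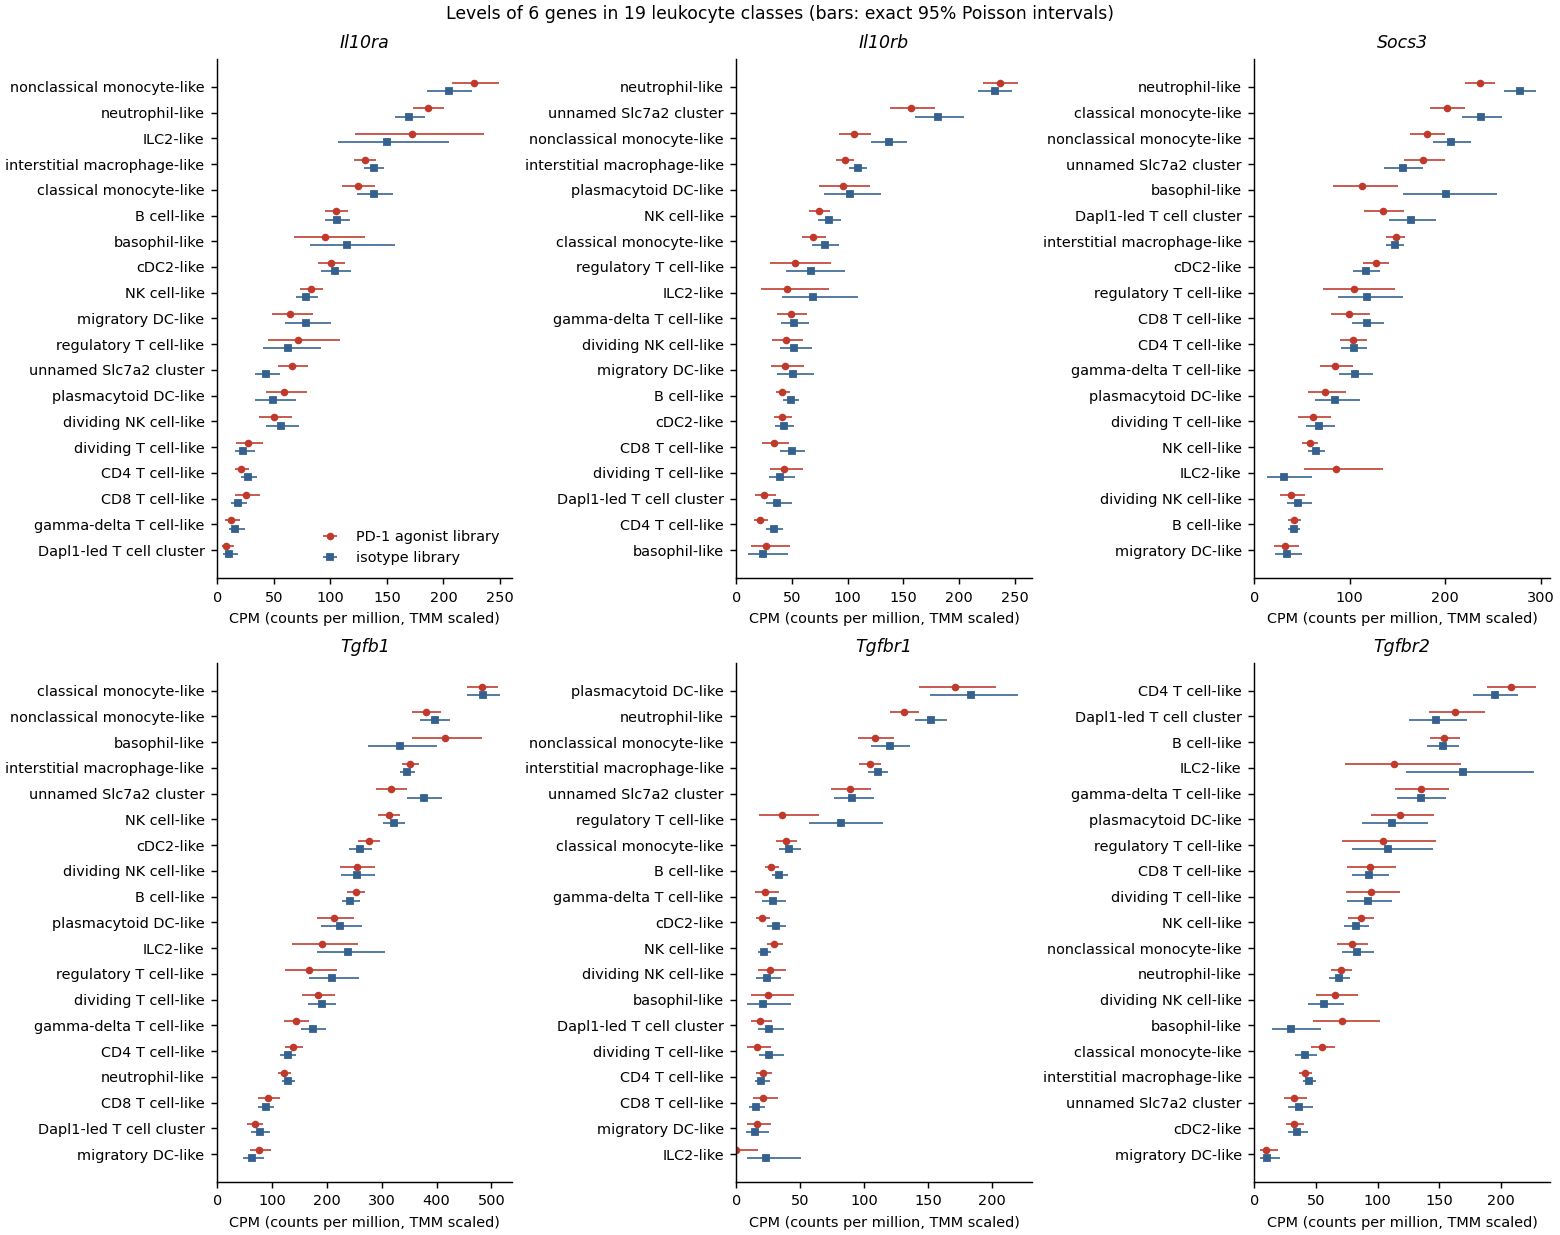
Levels (x axes, CPM) of 6 genes in 19 leukocyte classes, each panel sorted by the mean of both libraries; circles are the PD-1 agonist library, squares below them the isotype library, and bars exact 95% Poisson intervals. Il10ra, Il10rb and Socs3 lead in neutrophil-like or monocyte-like cells in both libraries, while Tgfbr2 leads in CD4 T cell-like cells at 208 and 195 CPM.

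The neutrophil-like class joined 2 clusters that differed in receptor levels in both libraries. In the cluster led by Il1a and Il1rn, Tgfbr1 was at 272 CPM (246 to 301) and 268 CPM (245 to 292), against 43.7 CPM (35.7 to 52.9) and 38.9 CPM (30.4 to 49.0) in the cluster led by Retnlg. Il10rb was at 350.5 and 328 CPM in the Il1a-led cluster and 164 and 143 CPM in the Retnlg-led cluster. Tgfb1 was at 157 and 158.5 CPM in the Il1a-led cluster, against 99.1 and 105 CPM. Il10ra differed less, at 166.5 and 176 CPM in the Il1a-led cluster and 195 and 169.7 CPM in the Retnlg-led cluster. Of the neutrophil markers, 8 were detected in the Il1a-led cluster but 0 were among its top 10 genes. With finer clusters, 228 agonist and 229 isotype cells led by Rab15 and Fnip2, which are also among those top 10, stayed unnamed. The clusters were drawn from other genes of the same cells, so these values are a description.

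The makeup of this class differed between the libraries: the Il1a-led cluster was 31.3% of the agonist and 43.8% of the isotype neutrophil-like cells. Tgfbr1 had a log2 ratio of -0.21 (-0.39 to -0.04) in the class as a whole, but 0.17 (-0.28 to 0.62) in the Retnlg-led cluster and 0.02 (-0.17 to 0.22) in the Il1a-led cluster. Socs3, at -0.24 (-0.37 to -0.10) in the class, was lower in the agonist library in both clusters, at -0.32 (-0.50 to -0.13) in the Retnlg-led one and -0.18 (-0.37 to 0.01) in the Il1a-led one. Thinned, 18.8% of agonist (17.1% to 20.5%) and 20.1% of isotype neutrophil-like cells (18.3% to 22.0%) had a Socs3 count, with overlapping intervals, against 25.5% and 31.8% unthinned. Thinning left out 231 and 139 of these cells.

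**Figure D3:**
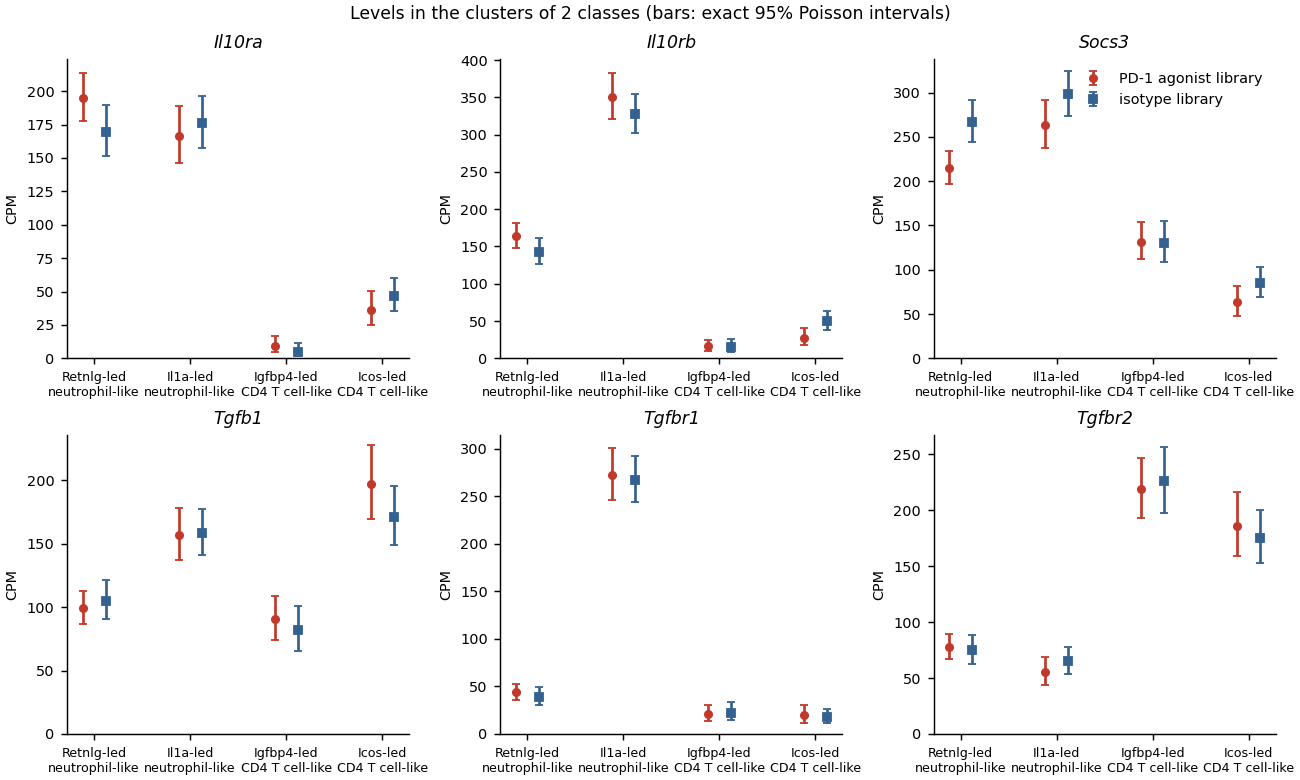
Levels (y axes, CPM) of 6 genes in the clusters of the neutrophil-like and CD4 T cell-like classes, with the PD-1 agonist library as circles left of the isotype library as squares; bars are exact 95% Poisson intervals. Tgfbr1 is at 272 and 268 CPM in the Il1a-led neutrophil-like cluster and 43.7 and 38.9 CPM in the Retnlg-led one.

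Between the libraries, the sums over all kept cells lay within 1.5-fold for 7 of the 8 genes. In such sums, fewer cells of a class and less RNA per cell cannot be told apart. Il10ra was at 103 CPM (agonist) and 98.6 CPM (isotype), a log2 ratio of 0.07 (-0.001 to 0.13), and Il10rb at 84.6 and 92.7 CPM (-0.13, -0.20 to -0.06). Tgfb1 was at 261 and 259 CPM (0.01, -0.03 to 0.05). Tgfbr1 was at 60.4 and 65.7 CPM (-0.12, -0.21 to -0.04) and Tgfbr2 at 86.0 and 84.4 CPM (0.03, -0.05 to 0.10). Lrrc32 was at 3.22 and 3.14 CPM (0.04, -0.35 to 0.42) and Socs3 at 125 and 133 CPM (-0.09, -0.15 to -0.03). Past a 1.5-fold difference, 0 of the 8 genes were higher and 1 was lower in the agonist library, against 5.86% higher and 2.23% lower of 15107 genes with at least 50 counts. The median log2 ratio was -0.04 over the 8 genes and -0.0046 over all genes measured.

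Il10 was the gene past 1.5-fold, at -0.60 (-1.01 to -0.20). This value rested on which cells and tables were used. It was -0.05 (-0.30 to 0.21) without the authors' cell filter, and -0.39 (-0.82 to 0.03) without PD-1 agonist replicate 1. Cells with over 4000 genes, which that filter removes, held 130 Il10 counts in 19 of 471 agonist cells and 114 counts in 28 of 660 isotype cells, against 84 and 133 counts in the kept cells. The 3 highest of those cells held 64.6% and 51.8% of the counts.

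Within the classes, 99 pairs of a gene and a class had at least 50 counts. They came from 13 to 19 classes for Il10ra, Il10rb, Tgfb1, Tgfbr1, Tgfbr2 and Socs3, 1 class for Lrrc32 and 0 for Il10. Of the 99, 1 was past 1.5-fold higher and 3 were past 1.5-fold lower in the agonist library, against 5.79% and 4.23% of all gene and class pairs, so neither share stood above the background. Il10rb was lower in 14 of 16 classes (median -0.21), Socs3 in 14 of 18 (median -0.18) and Tgfbr1 in 10 of 13 (median -0.10). Il10ra was lower in 8 of 15, Tgfb1 in 12 of 19 and Tgfbr2 in 7 of 17. All classes of a library come from the same pool, so these counts are not independent. How many of all genes were lower in as many classes was not computed, so these counts have no background beside them.

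Socs3 in basophil-like cells, which release histamine and type 2 cytokines, was at 113 CPM (46 counts) in the agonist library and 201 CPM (68 counts) in the isotype library (-0.83, -1.41 to -0.27), where 6.65% of genes were past 1.5-fold lower. The 11 neutrophil markers, of which 9 and 10 had counts and Ly6g had 0 in both libraries, summed to 7292 CPM and 5739 CPM in these cells. Their list includes Hdc, which encodes the enzyme that makes histamine, so the sum may hold RNA of the basophil-like cells themselves. The part of these markers in the difference was not tested. The log2 ratio of Socs3 was -0.56 with the repeated barcodes taken at their lowest total. Tgfbr1 in conventional dendritic cell type 2-like cells was at 20.1 CPM (53 counts) and 30.9 CPM (71 counts), a log2 ratio of -0.62 (-1.16 to -0.09), where 3.27% of genes were past 1.5-fold lower. The ratio was -0.34 without isotype replicate 1 or -0.38 with the lowest totals. Il10rb in CD4 T cell-like cells was at 21.1 CPM (44 counts) and 33.8 CPM (78 counts), at -0.68 (-1.24 to -0.13), where 3.9% of genes were past 1.5-fold lower. It was at 0.20 (-0.55 to 0.95) with finer clusters, where the class name covers a different set of cells. Its difference lay in the Icos-led cluster (27.2 and 49.8 CPM), while the Igfbp4-led cluster had 15.9 and 15.6 CPM, and the Icos-led cluster was 35.1% of the agonist and 43.5% of the isotype class.

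Il10ra in the Slc7a2-led cluster was the pair past 1.5-fold higher, at 66.3 CPM (54.0 to 80.5) in the agonist library and 43.3 CPM (33.4 to 55.3) in the isotype library (0.61, 0.15 to 1.09), where 5.96% of genes were past 1.5-fold higher. It was at 0.48 without isotype replicate 2 and 0.50 with the lowest totals, both within 1.5-fold. The 11 neutrophil markers, all with counts there in the agonist library and 10 in the isotype library, summed to 2398 CPM and 292 CPM in this cluster, and neutrophil-like cells are a class of high Il10ra. Their part in the difference was not tested. In the same cluster Tgfb1 was at 317 and 377 CPM (-0.25, -0.43 to -0.07).

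**Figure D4:**
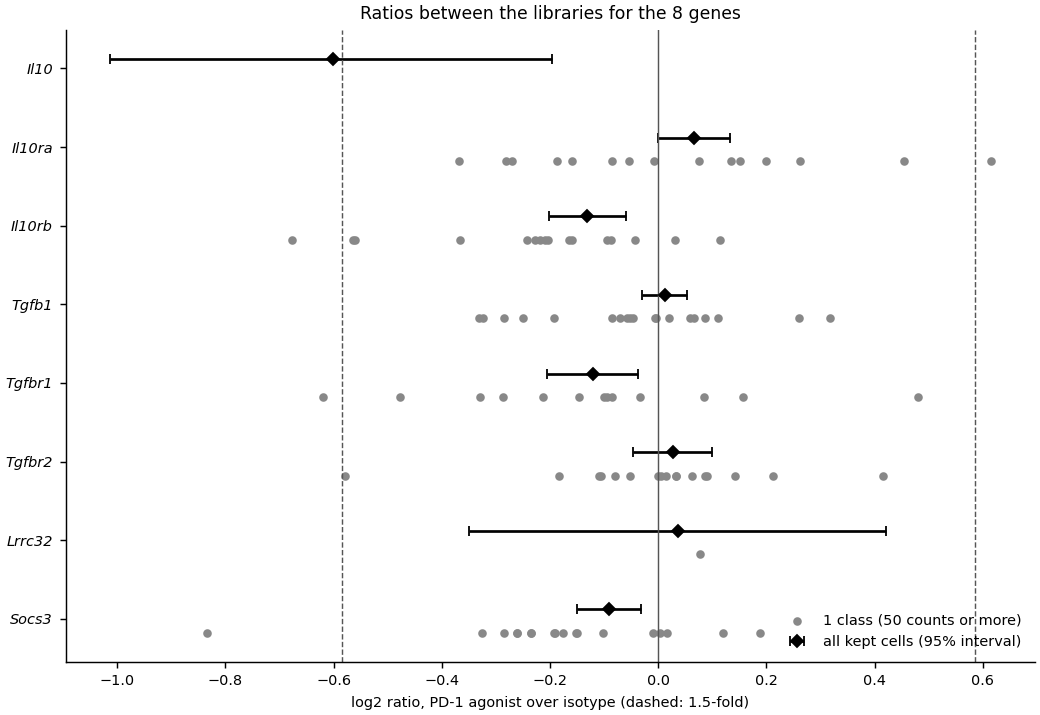
Log2 ratio of PD-1 agonist over isotype (x axis) for the 8 genes; diamonds with exact 95% intervals are all kept cells, grey points are classes with at least 50 counts, and dashed lines mark 1.5-fold. Il10, at -0.60, is the diamond past a dashed line, and 4 of the 99 grey points lie past one.

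Regulatory T cell-like cells had fewer than 50 counts of several receptor genes. Tgfbr1 was at 35.9 CPM (17.9 to 64.25, 11 counts) in the agonist library and 81.8 CPM (56.7 to 114, 34 counts) in the isotype library, a log2 ratio of -1.19 (-2.32 to -0.17), where 8.12% of genes with at least 50 counts were past 1.5-fold lower. This difference, from 45 counts, was chosen after its value was seen. Tgfbr2 was close to equal, at 105 CPM and 108 CPM. In this class the 11 neutrophil markers summed to 359 CPM (110 counts) and 130 CPM (54 counts), while fibroblast markers were at 0 in both libraries, and the part of other cells' RNA in these levels was not tested.

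The genes whose levels across the 19 classes were most like those of each gene were found by Pearson r of log2(CPM + 1), among 10116 genes with at least 200 counts. Classes share libraries, depth and related cells, so r is a description. Il10 was most like Foxp3 (r = 0.849), Lrrc32 (0.766) and the chemokine receptor gene Ccr4 (0.729), and Lrrc32 most like Foxp3 (0.918), the phosphatase gene Dusp4 (0.786) and Il10 (0.766). By Spearman rho instead, Foxp3 had rank 107 for Il10 (0.459), Lrrc32 rank 523 (0.345) and Ccr4 rank 128 (0.445). For Lrrc32, Foxp3 had rank 4 (0.724), Dusp4 rank 13 (0.662) and Il10 rank 457 (0.345). For the other genes, the Spearman ranks of those named below ran from 1 (Frrs1 for Socs3) to 189 (Pot1a for Tgfbr2). Without the regulatory class, over 18 classes, r was 0.572 for Il10 with Foxp3, 0.32 for Il10 with Lrrc32 and 0.666 for Lrrc32 with Foxp3. Foxp3 was among the markers used to name that class.

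Il10ra was most like Casp4 (0.848), an inflammatory caspase gene, Myadm (0.837) and Dennd5a (0.836). Il10rb was most like Napa (0.881), Atp6v1a (0.875), a subunit of the vacuolar proton pump, and Mfsd11 (0.867). Tgfb1 was most like the ceramide synthase gene Cers2 (0.845), Sft2d1 (0.832), uncertain because 37.9% of its 31-mers occur elsewhere, and Atf6 (0.827). Tgfbr1 was most like Mcfd2 (0.875), Stard5 (0.868) and Rnf185 (0.846), and Tgfbr2 most like the mismatch repair gene Msh3 (0.891), the telomere gene Pot1a (0.888) and Nt5dc1 (0.887). Socs3 was most like Vsir (0.877), which encodes the checkpoint protein VISTA, Frrs1 (0.876) and Rtp4 (0.828), whose sequence is shared for 14.5%.

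Of 76 other genes of both pathways in 11 lists, 63 had at least 50 counts, and 1 was past 1.5-fold higher and 0 past 1.5-fold lower in the agonist library, against 5.86% and 2.23% of all genes. Their median log2 ratio was 0.01. Within the 19 classes, 654 pairs of a pathway gene and a class had at least 50 counts, of which 18 (2.75%) were past 1.5-fold higher and 24 (3.67%) lower, against 5.79% and 4.23% of all gene and class pairs. Il19, Il20, Ifnl2, Ifnl3, Il22ra1 and Itgb6 were not analysed here. In the list of interleukin 10 receptor signalling, 4 of 4 genes were measured and 0 were past 1.5-fold over all kept cells. Jak1, the kinase bound to IL10RA, was at 439 CPM in the agonist library and 411 CPM in the isotype library (0.10). Among 7 genes that interleukin 10 induces in macrophages, 0 were past 1.5-fold over all kept cells (median 0.05). Zfp36, which encodes an mRNA-destabilising protein, was at 1044 and 1097 CPM (-0.07), and Il1rn, the interleukin 1 receptor antagonist, at 304 and 312 CPM (-0.04).

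Il22, whose product signals through IL10RB in epithelium, was the gene past 1.5-fold, in a list of which 3 of 11 genes were measured. It had 193 counts in 25 agonist cells and 24 counts in 9 isotype cells, or 5.44 CPM and 0.649 CPM, a log2 ratio of 3.07 (2.45 to 3.75). Gamma-delta T cell-like cells held 106 agonist counts in 3 cells and 9 isotype counts in 2 cells, and CD4 T cell-like cells held 36 counts in 9 cells and 7 counts in 5 cells. A single cell held 37.8% of the agonist counts and 33.3% of the isotype counts. The log2 ratio was 2.97 (2.21 to 3.82) without that cell and 3.45 (2.25 to 4.95) without the 3 highest cells of each library. Cells with over 4000 genes, which the authors' filter removes, held 85 counts in 6 agonist cells and 35 counts in 3 isotype cells. Cells called doublets held 20 and 10 counts. No ratio of Il22 was computed with these cells. Il22 shares 53.6% of its sequence with other genes, so its counts are uncertain.

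In the 5 lists of the TGF-beta pathway, 0 measured genes were past 1.5-fold over all kept cells. Thbs1, which encodes thrombospondin 1, an activator of latent TGF-beta, was at 289 CPM in the agonist library and 233 CPM in the isotype library (0.31, 0.27 to 0.35). Within neutrophil-like cells, a pair chosen after its value was seen, it was at 1185 and 749.7 CPM (0.66, 0.59 to 0.73). In this class 6.19% of genes were past 1.5-fold higher. The Retnlg-led cluster was 68.7% of its agonist and 56.2% of its isotype cells, and the part of this makeup in the difference was not tested. Itgb1, an integrin chain, was at 220.5 and 245 CPM (-0.15). Smad4, the common mediator, was at 81.6 and 69.4 CPM (0.23, 0.16 to 0.31) and Smad2, a receptor-activated mediator, at 45.0 and 42.5 CPM (0.08). Of the feedback inhibitors, Skil was at 272 and 284 CPM (-0.06) and Tgif1 at 159.5 and 159.9 CPM (-0.00), and the induced gene Tgfbi was at 467 and 458 CPM (0.03). Inhba, an activin chain, was at 51.3 and 53.6 CPM (-0.06) and the type I receptor gene Acvrl1 at 17.99 and 19.8 CPM (-0.14).

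The remaining lists also had 0 genes past 1.5-fold over all kept cells. Among transcription factors of lymphocytes that make interleukin 10, Nfil3 was at 165 CPM (agonist) and 160 CPM (isotype), and Maf at 99.3 and 103 CPM. Of the other suppressive cytokines, Ebi3, a chain shared by interleukins 27 and 35, was at 26.7 and 22.5 CPM (0.25, 0.11 to 0.38), and the receptor gene Il6st at 46.5 and 44.2 CPM (0.07). In the SOCS family, Cish was at 102 and 95.4 CPM (0.09) and Socs1, which restrains interferon signals, at 55.5 and 63.9 CPM (-0.20, -0.29 to -0.12). Within classical monocyte-like cells, also chosen after its value was seen, Socs1 was at 34.6 and 68.5 CPM (-0.99, -1.39 to -0.59), from 82 and 149 counts. In that class 3.43% of genes were past 1.5-fold lower.

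**Figure D5:**
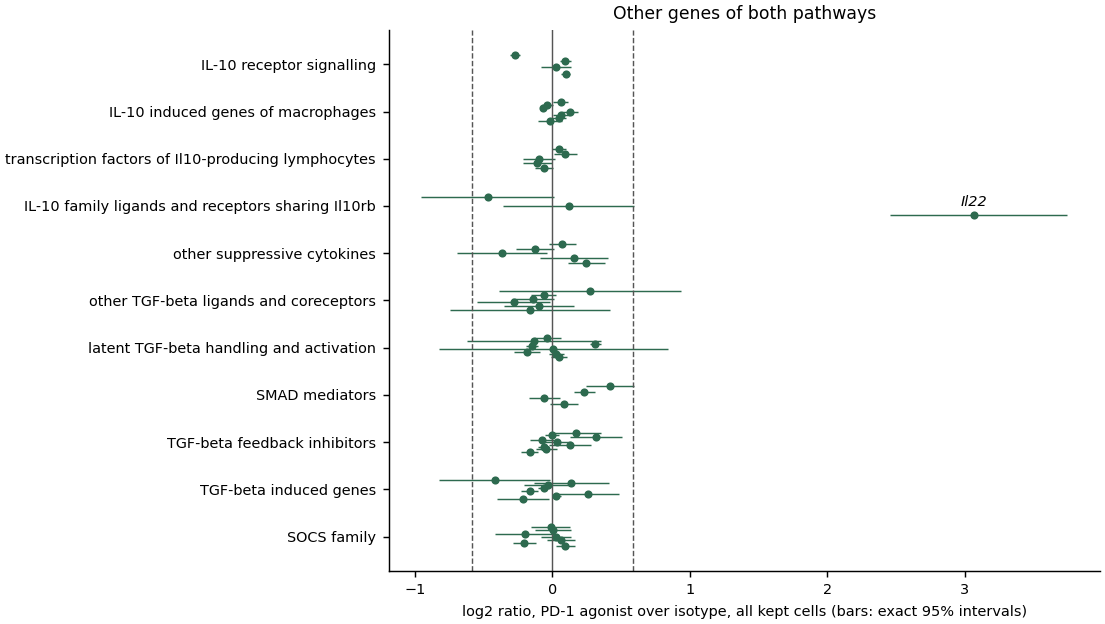
Log2 ratio of PD-1 agonist over isotype over all kept cells (x axis) for the measured genes of 11 lists of both pathways; bars are exact 95% intervals and dashed lines mark 1.5-fold. Il22, at 3.07, lies past a dashed line, and the other points lie between -0.47 and 0.42.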

How the data were processed

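The deposited tables held 1 record per cell with expected counts per gene, the authors' estimated counts, not scaled between cells. Under 1% of the values above 0 were not whole. Per the file headers, the tables also give counts of expressed genes, total counts, and the percent of mitochondrial and ribosomal reads. The submitters' processing notes name Partek and mm10, and the counting method is not given in the sources used here. Records joined on 1 line were split.

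Each barcode was taken from its table with the highest total. The authors' filter (500 to 4000 genes) was kept, and Scrublet (threshold 0.25) removed 1048 agonist (8.58%) and 804 isotype (7.24%) doublets. Cells were clustered in scanpy 1.11.5 on 2000 variable genes without the 8 genes and the pathway lists (Leiden resolution 1, lymphoid cells again). Naming needed at least 3 detected markers, and its thresholds were chosen after the clusters had been seen. Counts were summed per class, rounded and scaled with TMM factors (edgeR 4.0.16), used for nothing else. With 1 sample per treatment no test was run, in place of the planned test of tables. Poisson intervals of levels and Clopper-Pearson intervals of ratios were tested on sums drawn from the Poisson model they assume, not on single cells. That test could not show how the intervals hold where counts gather in few cells. The intervals cover counting error only and are too narrow where 1 cell holds many counts.

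The genes and lists were chosen with earlier results of these data known. All 8 genes were named, with the 3 genes most like each, and of each pathway list those past 1.5-fold or otherwise the 2 with the most counts. The result of 1 gene of these lists is not reported here. Alternatives were scaling, minimum counts, tables, repeated barcodes, doublets, cell filter, single cells, clustering, cell makeup and thinning.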

Additional observations from a re-analysis of the deposited data

How the results depend on the processing

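No paired analysis was possible because the 3 tables of a treatment share cells and each treatment is 1 sample. Over all kept cells, Il10 moved to -0.046 without the authors' cell filter. Leaving out each table in turn gave log2 ratios from -0.74 to -0.39 for Il10, with -0.39 without PD-1 agonist replicate 1, 0.03 to 0.10 for Il10ra, -0.16 to -0.10 for Il10rb, 0.01 to 0.03 for Tgfb1, -0.17 to -0.06 for Tgfbr1, -0.01 to 0.03 for Tgfbr2, -0.14 to 0.32 for Lrrc32 and -0.11 to -0.07 for Socs3. The cause was not tested. With classes weighted equally in both libraries Il10 was at -0.50, with doublets kept at -0.53, and without the 3 highest cells of each library, a setting chosen after seeing the data, at -0.50. With no minimum of counts, 5 pathway genes were past 1.5-fold higher and 1 lower, since genes with few counts then enter. Within classes, Il10rb in CD4 T cell-like cells reversed to 0.20 at the finer clustering, where class names cover partly other cells. At that clustering CD8 T cell-like cells were 131 agonist and 226 isotype cells led by Ifng and Pdcd1, against 225 and 327 led by Cd8a and Cd8b1. There Tgfb1 in CD8 T cell-like cells was at 0.48 (0.07 before) and Socs3 at -0.79 (-0.26 before), and Socs3 in the Slc7a2-led cluster was at -0.09 without PD-1 agonist replicate 1 (0.19 with it). The other 1172 pairs of a class value and a setting lay within the interval of the main value. No class value was computed without the cell filter. Depth limits Il10 and Lrrc32 most, with 84 and 133 counts of Il10 and 114 and 116 of Lrrc32.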
